A study of Mus musculus with 5 samples.

Results

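The genes described here are those of glucose breakdown and of the response to low oxygen in mouse glioma cells. They are 36 genes chosen by symbol, of 29495 in the count tables, and all 36 were found. Of these, 22 encode the glycolytic enzymes, the glucose and lactate transporters and the enzymes that admit pyruvate to mitochondria. The other 14 make up the hypoxia arm: Hif1a, which encodes the oxygen-regulated transcription factor subunit HIF-1 alpha, and genes known as its targets. A filter on low counts kept 34 of the 36 for testing, all 22 of the first set and 12 of the second.

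The cells were glioma cells of genotype p53-/-;NF1-/-;tdTomato+/-, from a tumour model of mixed CD-1 and C57BL/6 background, which shared the dish with neurons taken from the olfactory bulb (OB) of C57BL/6 pups (postnatal days 2 to 3) and were then sorted on the red fluorescent protein tdTomato. One group had no added factor (2 libraries, control replicates 1 and 2), and the other was kept overnight with the growth factor IGF-1 at 20 ng/mL (3 libraries, IGF-1 replicates 3, 4 and 5). Both groups therefore carried the same losses of p53 and NF1 and had been with neurons, and the neuron media, which held serum, glucose and at plating insulin, were the same for both groups as far as the labels say. The driver of the deletions and the separate origin of the libraries (cultures or tumours) are not given in the sources used here. All titles share 1 code, which the labels do not explain. The p-values thus measure only how far these libraries spread, and that spread may be technical.

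Polyadenylated RNA was sequenced and read as raw counts per gene, with library totals of 16944315 to 20144181. Levels are given as CPM, counts scaled to a common library size. Replicate 5 of the IGF-1 group stood apart. Its quality weight (the relative precision that limma gives a library) was 0.292, against 1.34 to 1.39 for the others. Where a call of 1 of the 36 genes depends on it, the result is given with and without it. Summed markers of glial progenitors were 3785 and 3916 CPM in the controls and 3970 to 4432 with IGF-1. Summed neuronal markers were far lower, 29.4 and 29.6 CPM in the controls and 35.3 to 37.3 CPM with IGF-1, with 7 of 11 genes under 1 CPM on average. Most of that sum was Nefm, a neurofilament gene (mean 22.7 CPM), while the neuronal nuclear protein gene Rbfox3 had 0 or 1 count per library. Summed astrocyte markers, led by Slc1a3, were 282.3 and 282.5 CPM in the controls and 252 to 276 CPM with IGF-1. The 6 microglial genes together reached at most 1.11 CPM, the endothelial list at most 9.21 CPM, and the list of mural cells and fibroblasts at most 10.1 CPM. In sorted bulk samples, fewer cells of a type and less RNA per cell cannot be told apart.

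Glycolysis splits glucose into pyruvate with a small yield of ATP, and tumour cells are known to run it fast even with oxygen present, turning pyruvate into lactate. Insulin and IGF-1 are known to promote glucose use through PI3K and AKT, and HIF-1 is known to activate most genes of the pathway when oxygen falls. When oxygen is present, prolyl hydroxylases of the EGLN family mark HIF-1 alpha for destruction, so the level of its mRNA is not a measure of its activity.

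With IGF-1, 0 of the 34 tested genes passed an adjusted p of 0.05 by edgeR (its quasi-likelihood test, adjusted by Benjamini and Hochberg over the whole table). Of all 15919 genes tested, 1.02% passed, 0.685% as higher and 0.339% as lower. Without the adjustment, Hk2 was higher and Tpi1 lower at p under 0.05, or 2 of 34 genes, against 12.7% of all genes. The median log2 change of the 22 enzymes and transporters was -0.07, that of the 12 hypoxia genes was 0.03, and that of all genes was -0.01. DESeq2 called 1 gene higher, Hk2, and 0 lower. Of the 12912 genes to which DESeq2 gave an adjusted p, it called 1.39% higher and 0.581% lower, 1.97% in all. Unadjusted, DESeq2 also had 1 gene, Hk2, against 9.25% of those 12912 genes. Limma-voom with sample quality weights called Hk2 higher and Bnip3l lower, against 3.02% of all genes called higher and 2.08% lower, 5.09% in all. Unadjusted it had 2 higher and 3 lower, against 18.5% of all genes. Without IGF-1 replicate 5, edgeR called 1 higher, Hk2, and 2 lower, Pdk2 and Bnip3l, of 33 tested, where it called 5.49% of all genes higher and 3.65% lower, 9.14% in all. Unadjusted, 7 of the 33 were then higher and 7 lower, against 21.3% of all genes. Values did not overlap between the groups for 10 of the 34 genes, which is near the share over all genes tested (33.1%). IGF-1 was the higher group in 3 of the 10 (Hk1, Hk2 and Egln1), against 16.2% of all genes, and the lower in 7 (Slc2a3, Tpi1, Gapdh, Pgk1, Pkm, Pdha1 and Pdk3), against 16.9%.

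The most abundant transcripts were those of the lower, ATP-yielding part of glycolysis. Per kilobase of transcript, the control means were 882 CPM per kb for Gapdh (glyceraldehyde-3-phosphate dehydrogenase), 866 for Eno1 (enolase), 375 for Pkm (pyruvate kinase), 357 for Pgk1 (phosphoglycerate kinase) and 302 for Ldha (lactate dehydrogenase A). The first 11 places of the 36 were taken by enzyme genes. Hif1a, in the next place, stood at 40.2 CPM per kb, and Egln1, whose product marks HIF-1 alpha for destruction, at 26.8 CPM per kb. The glucose transporter genes Slc2a1 (6.42) and Slc2a3 (4.99) and the hexokinase gene Hk2 (3.07 CPM per kb) were much less abundant. Gapdh and Eno1 did not keep 1 order: Gapdh was above Eno1 in both controls and IGF-1 replicate 3 and below it in replicates 4 and 5. Kdm3a and Egln1, also neighbours, overlapped in the controls. The lowest were Slc16a3, the gene of the lactate exporter MCT4, with 7 to 12 counts per library, Car9, the gene of carbonic anhydrase 9, with 2 to 4 counts, and Adm, the gene of the vasodilator peptide adrenomedullin, with 1 to 9 counts. Car9 and Adm did not pass the filter, so no test is given for them. The enzyme and transporter genes together took 0.67% of all counts in each control, 0.658% and 0.665% in IGF-1 replicates 3 and 4, and 0.551% in replicate 5. The hypoxia genes took 0.0693% to 0.074% in every library.

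**Figure D1:**
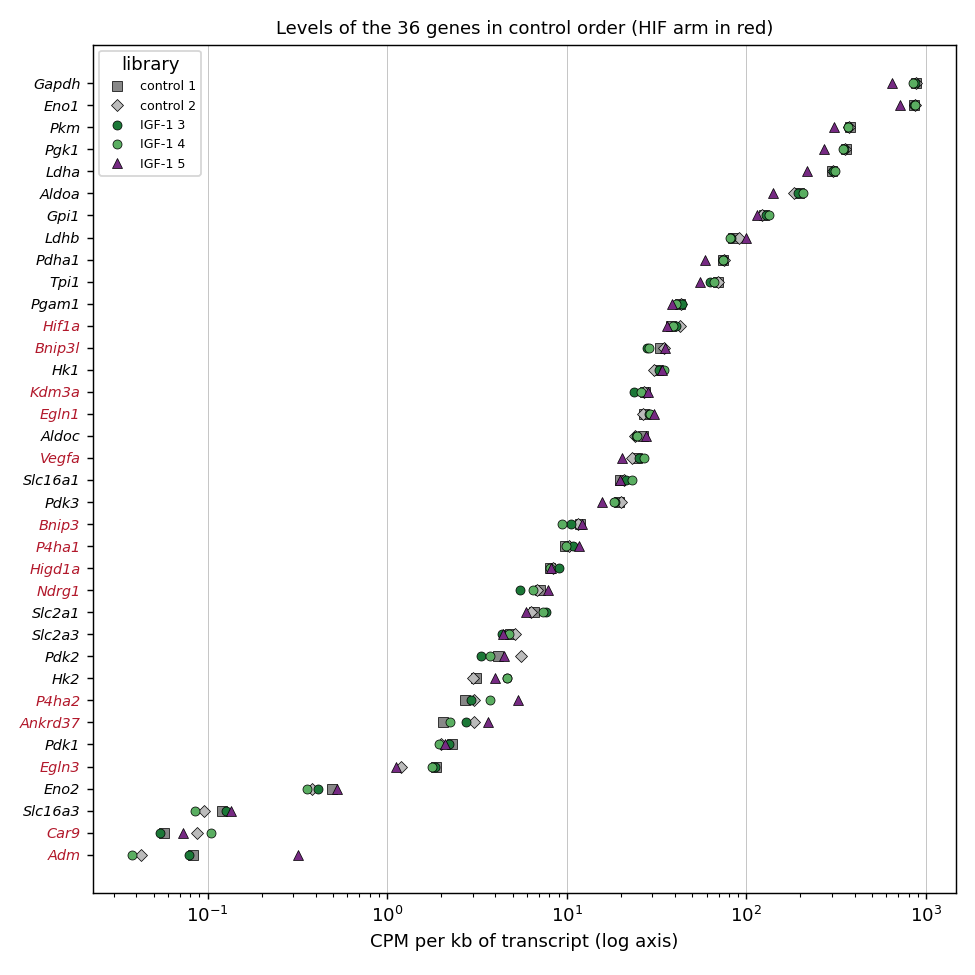
Level of each of the 36 genes in each library, in CPM per kilobase of transcript on a log axis, in the order of the control means, with hypoxia genes named in red. Gapdh and Eno1 lead at 882 and 866 CPM per kb in the controls, and Slc16a3, Car9 and Adm lie at the bottom.

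Some of these transcripts are nearly copied elsewhere in the genome, so their counts are less certain. Of the 36 transcripts, 14 share at least one stretch of 75 bases with a transcript of another gene and 22 share none. The shared part was 80.3% of such stretches for Gapdh, 67.5% for Pgk1, 65.4% for Eno1 and 40.6% for Pgam1. Few reads were assigned to the copies that were looked up: Eno1b had 78 to 103 counts per library, Pgam1-ps2 17 to 29 and Pgk1-rs7 5 to 15. Copies of Gapdh were not looked up. As the handling of multiply mapped reads is not given, low counts at copies do not settle how certain these levels are. Hk1, Hk2, Pdk2 and the glucose transporters share no such stretch.

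Glucose enters through GLUT1 (Slc2a1), the widespread transporter, and GLUT3 (Slc2a3), the form typical of neurons. Slc2a1 read 21.4 and 20.5 CPM in the controls and 25.1, 24.0 and 19.3 CPM in IGF-1 replicates 3, 4 and 5. It was above both controls in replicates 3 and 4 and below both in replicate 5, and the change did not pass (log2 0.12, SE 0.12; adjusted p = 0.725 by edgeR). Without replicate 5 it was 0.23 (SE 0.10; adjusted p = 0.14). Slc2a3 read 19.1 and 20.4 CPM in the controls and 17.4, 19.0 and 17.4 CPM with IGF-1. All 3 IGF-1 values were below the controls, replicate 4 only just (log2 -0.14, SE 0.10; adjusted p = 0.612 by edgeR). The neuronal marker sum was higher in all 3 IGF-1 libraries, but not through the same gene in each. In unscaled counts, Nefm had 354 and 344 in the controls and 463, 519 and 406 in IGF-1 replicates 3, 4 and 5. Syt1, another gene of that list, had 81 and 94, then 94, 105 and 232. Any part of remaining neurons in the Slc2a3 values was not tested.

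Hexokinase commits glucose to the cell by phosphorylation. Hk2, the regulated form that is known to respond to insulin in muscle and fat, showed the largest difference of the 22 enzymes and transporters. It read 17.3 and 16.6 CPM in the controls and 25.6, 25.8 and 22.1 CPM in IGF-1 replicates 3, 4 and 5, or 16.9 ± 0.433 (SD, n = 2) against 24.5 ± 2.08 CPM (SD, n = 3). Every IGF-1 library was above both controls, replicate 5 by the least. The difference was 1.44-fold (log2 0.53, SE 0.11) and just missed the threshold with all libraries (adjusted p = 0.0573 by edgeR). Nor did it pass by edgeR with other scalings or without IGF-1 replicate 3 or 4, or by limma-voom without quality weights. It passed by DESeq2 (log2 0.53; adjusted p = 0.0231) and by limma-voom with sample quality weights (log2 0.58; adjusted p = 0.00128). It also passed by edgeR without IGF-1 replicate 5 (log2 0.60; adjusted p = 4.9e-06), and over all alternatives the log2 change lay between 0.49 and 0.60 and the adjusted p between 4.9e-06 and 0.635, the highest without control replicate 2.

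Hk1, the constitutive form and the main one in brain, was the more abundant. It read 137 and 131 CPM in the controls and 139, 149 and 145 CPM with IGF-1. All 3 IGF-1 values were above both controls, the lowest by little, and the change did not pass (log2 0.11, SE 0.06; adjusted p = 0.521 by edgeR). A ratio of both genes within a library does not depend on how libraries are scaled. Per length, Hk2 made up 8.93% ± 0.046 of the hexokinase transcripts in the controls (SD, n = 2) and 12.5%, 11.8% and 10.6% in IGF-1 replicates 3, 4 and 5. The log2 ratio of Hk1 to Hk2 counts was 2.99 and 2.98 in the control libraries and 2.44, 2.53 and 2.72 in IGF-1 replicates 3, 4 and 5, a difference of -0.42 between the group means. The ratios of this pair did not overlap between the groups, as 1 of 12 pairs of related genes compared in this way. With 2 against 3 libraries an exact permutation test cannot go below p = 0.2 (two-sided), so none was run, and this count does not set the pair apart.

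**Figure D2:**
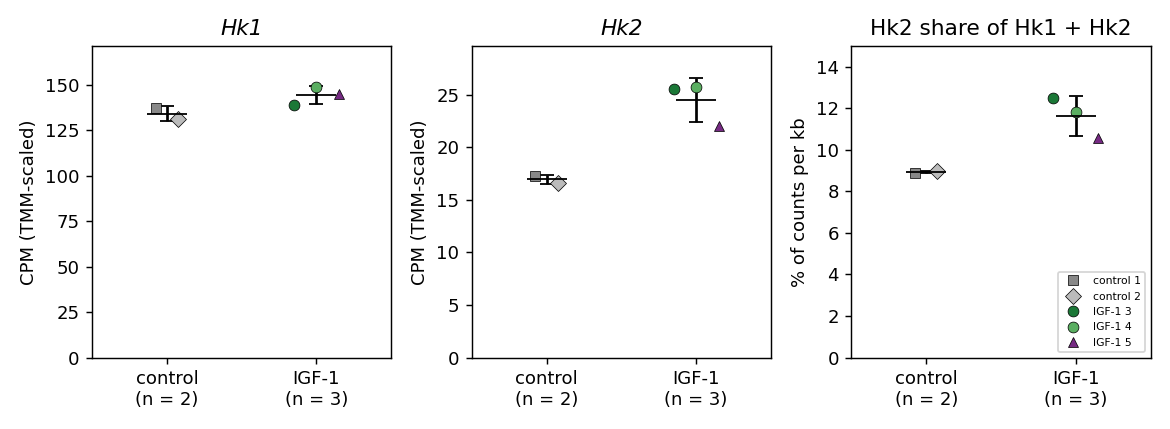
Hk1 and Hk2 in CPM, and Hk2 as a percent of both hexokinase transcripts per kilobase, for each library, with the group mean and SD as a bar (n = 2 and 3). Hk2 lies at 16.6 to 17.3 CPM in the controls and 22.1 to 25.8 CPM with IGF-1, while Hk1 differs by little.

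The upstream sequences of both hexokinase genes are shown because Hk2 showed the largest difference, with those of 3 well-known HIF targets beside them. For Ldha the first of its listed starts is shown. Each line gives the 250 bases before a transcription start of RefSeq on GRCm38.p6, read 5′ to 3′ on the strand of the gene, and capitals mark ACGTG or GCGTG, the core to which HIF is known to bind, or their reverse complements CACGT and CACGC. Where both strands match, as in CACGTG, the matches overlap and count separately.
Hk2, chr6:82774455-82774704 (- strand): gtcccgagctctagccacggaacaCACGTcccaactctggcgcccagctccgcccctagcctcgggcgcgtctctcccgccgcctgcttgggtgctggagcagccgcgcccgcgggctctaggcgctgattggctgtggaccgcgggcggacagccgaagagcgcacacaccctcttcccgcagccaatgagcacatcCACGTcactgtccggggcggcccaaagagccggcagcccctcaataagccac
Hk1, first listed start, chr10:62340422-62340671 (- strand): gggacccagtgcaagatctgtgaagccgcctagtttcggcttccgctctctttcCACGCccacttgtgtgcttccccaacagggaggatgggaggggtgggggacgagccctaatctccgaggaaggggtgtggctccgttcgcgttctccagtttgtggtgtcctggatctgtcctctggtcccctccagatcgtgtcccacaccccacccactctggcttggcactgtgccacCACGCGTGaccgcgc
Hk1, other listed start, chr10:62379909-62380158 (- strand): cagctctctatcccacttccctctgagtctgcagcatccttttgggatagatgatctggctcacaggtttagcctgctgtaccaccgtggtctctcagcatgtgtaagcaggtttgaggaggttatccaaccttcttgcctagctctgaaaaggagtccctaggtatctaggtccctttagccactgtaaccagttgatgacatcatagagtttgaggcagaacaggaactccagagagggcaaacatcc
Pgk1, chrX:106186850-106187099 (+ strand): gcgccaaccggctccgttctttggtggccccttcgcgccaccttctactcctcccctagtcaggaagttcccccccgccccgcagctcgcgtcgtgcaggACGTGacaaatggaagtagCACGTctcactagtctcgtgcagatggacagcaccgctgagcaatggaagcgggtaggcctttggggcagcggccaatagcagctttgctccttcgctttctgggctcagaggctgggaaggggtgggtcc
Ldha, chr7:46845554-46845803 (+ strand): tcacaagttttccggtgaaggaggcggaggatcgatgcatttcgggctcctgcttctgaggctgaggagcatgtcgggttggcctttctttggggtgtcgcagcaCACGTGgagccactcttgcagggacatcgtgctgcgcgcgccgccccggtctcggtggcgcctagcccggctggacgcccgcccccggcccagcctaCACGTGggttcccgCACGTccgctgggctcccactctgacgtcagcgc
Bnip3, chr7:138909507-138909756 (- strand): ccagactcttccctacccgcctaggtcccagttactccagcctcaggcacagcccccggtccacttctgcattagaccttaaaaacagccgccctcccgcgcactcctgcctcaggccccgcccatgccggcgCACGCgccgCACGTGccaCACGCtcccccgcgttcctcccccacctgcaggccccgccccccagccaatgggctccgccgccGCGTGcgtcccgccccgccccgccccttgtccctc
Hk2 holds 2 matches before its start, at -226 and -52, counted from -1 just before the start. Hk1 holds 3 before its first listed start and 0 before the other. Promoters of 250 bases before to 50 after the start were found for 33 of the 36 genes, 46 starts in all. ACGTG was found in 48.4% of the 31 starts of enzyme and transporter genes and 66.7% of the 15 of hypoxia genes, against 24.8% of the 14243 starts of genes tested and 19.6% of all 32851. GCGTG was found in 51.6% and 60.0% of the members' starts, and in 49.2% and 32.4% of the others. Many of the members were chosen as known HIF targets, so the higher share is no independent result, and a match is only a match of letters.

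Gpi1 (glucose-6-phosphate isomerase), Aldoa and Aldoc (aldolases, the second typical of brain) and Tpi1 (triose phosphate isomerase) take the sugar to the triose stage. Gpi1 read 361 and 351 CPM in the controls and 369, 384 and 331 CPM with IGF-1 (log2 0.02, SE 0.07). Aldoa read 302 and 284 CPM and then 299, 318 and 217 CPM (log2 -0.07, SE 0.13). In both genes replicates 3 and 4 lay within or above the controls and replicate 5 lay below them. Aldoc read 74.2 and 66.7 CPM in the controls and 67.6, 68.5 and 76.5 CPM with IGF-1, so that the groups overlapped and replicate 5 was the highest. Tpi1 read 112 CPM in both controls and 101, 106 and 89.2 CPM with IGF-1. All 3 were below the controls, and the difference did not pass (log2 -0.18, SE 0.08; adjusted p = 0.374 by edgeR).

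In the lower part of the pathway, too, replicate 5 lay below the other libraries for most genes. Gapdh read 1249 and 1254 CPM in the controls, 1230 and 1201 CPM in IGF-1 replicates 3 and 4, and 917 CPM in replicate 5. Pgk1 read 655 and 647, then 638 and 627, and 493 CPM in replicate 5. Ldha, whose enzyme turns pyruvate into lactate, read 546 and 551, then 551 and 566, and 397 CPM in replicate 5. Replicates 3 and 4 were thus within a few percent of the controls in each of these genes, and replicate 5 was well below.

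Eno1 read 1745 and 1766 CPM in the controls, 1746 and 1768 CPM in replicates 3 and 4, and 1445 CPM in replicate 5. Pkm read 920 and 904, then 890 and 900, and 748 CPM. Pdha1, the gene of the catalytic subunit of pyruvate dehydrogenase, read 212 and 214 CPM, then 211 in both replicates 3 and 4, and 168 CPM in replicate 5. Pgam1 (phosphoglycerate mutase) differed less, at 76.2 and 76.7 CPM in the controls and 77.7, 72.3 and 68.8 CPM with IGF-1. With all libraries the log2 changes of these 7 genes lay between -0.17 and -0.07, with adjusted p of 0.576 or more by edgeR, and without replicate 5 between -0.04 and 0.03, with adjusted p of 0.47 or more. Eno2, the neuron-specific enolase, read 1.01 to 1.47 CPM and did not separate the groups.

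**Figure D3:**
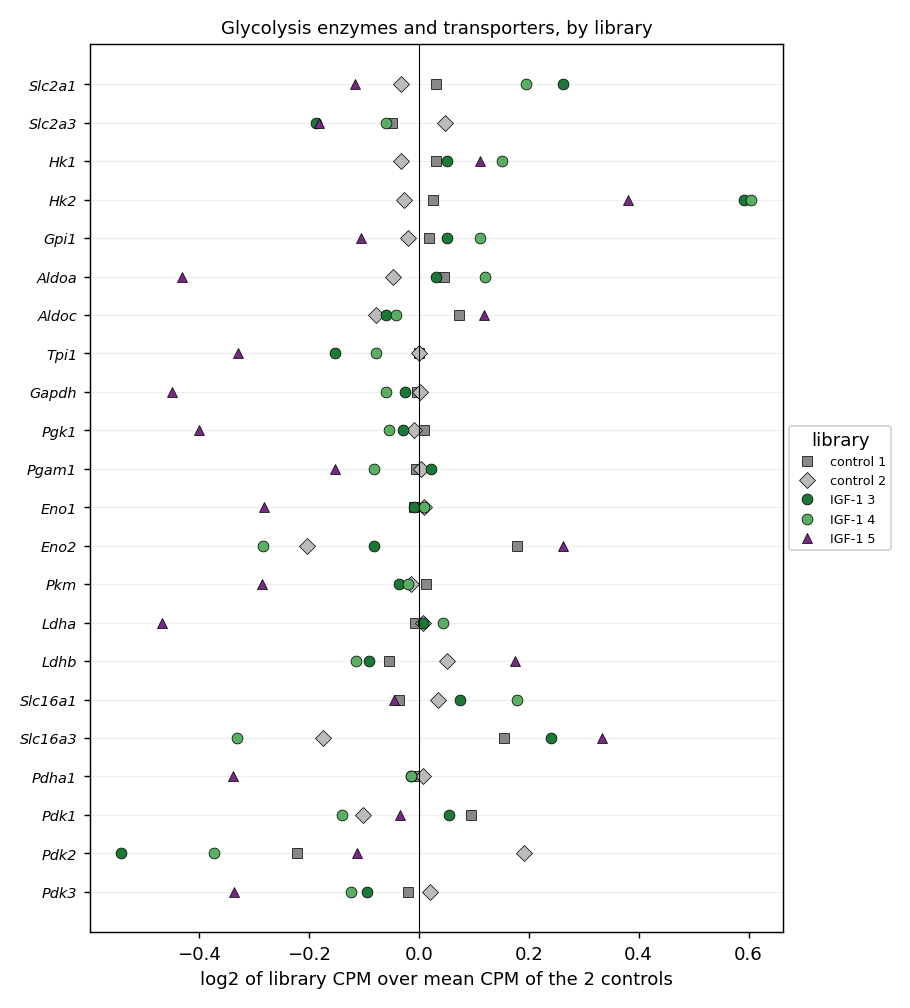
Log2 of the CPM of each library over the mean of the 2 controls, for the 22 genes of glycolysis, transport and pyruvate entry. Replicates 3 and 4 of IGF-1 lie near 0 for most enzymes and near 0.6 for Hk2, while replicate 5 lies at -0.28 to -0.47 for Aldoa, Tpi1, Gapdh, Pgk1, Eno1, Pkm, Ldha and Pdha1.

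Among the enzyme and transporter genes of at least 100 CPM, a level chosen after the values were seen, replicate 5 was the lowest of the 5 libraries for 9 of 11, the exceptions being Hk1 and Ldhb. The share over all genes tested was 29.3%, and over the 2667 genes of that level 39.6%. The median log2 difference from the controls over the 11 genes was -0.01 in both replicates 3 and 4 but -0.33 in replicate 5, against 0.02, 0.02 and 0.00 over the 2667. Transcript length moved with this pattern. Among genes of at least 100 CPM, the median in replicate 5 was -0.33 over the 212 transcripts shorter than 1500 bases, -0.09 over the 681 of 1500 to 3000 bases and 0.05 over the 1732 longer ones. Lengths were matched for 80.9% of the genes tested. The 8 enzyme genes in the middle class (Pgk1, Pdha1, Eno1, Tpi1, Gpi1, Ldha, Aldoa and Pkm) had a median of -0.33, and all 8 were lowest in replicate 5, as were 60.1% of the genes of that class. Ldhb, the lactate dehydrogenase form that favours pyruvate, has one of the shortest transcripts (1304 bases) and went the other way, with 110 and 118 CPM in the controls, 107 and 106 CPM in replicates 3 and 4 and 129 CPM in replicate 5. Ldhb thus made up 20.6% and 21.3% of the lactate dehydrogenase transcripts per length in replicates 4 and 3, close to the 22.5% ± 0.777 of the controls (SD, n = 2), and 31.2% in replicate 5. The part of length and library quality in these differences was not tested.

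**Figure D4:**
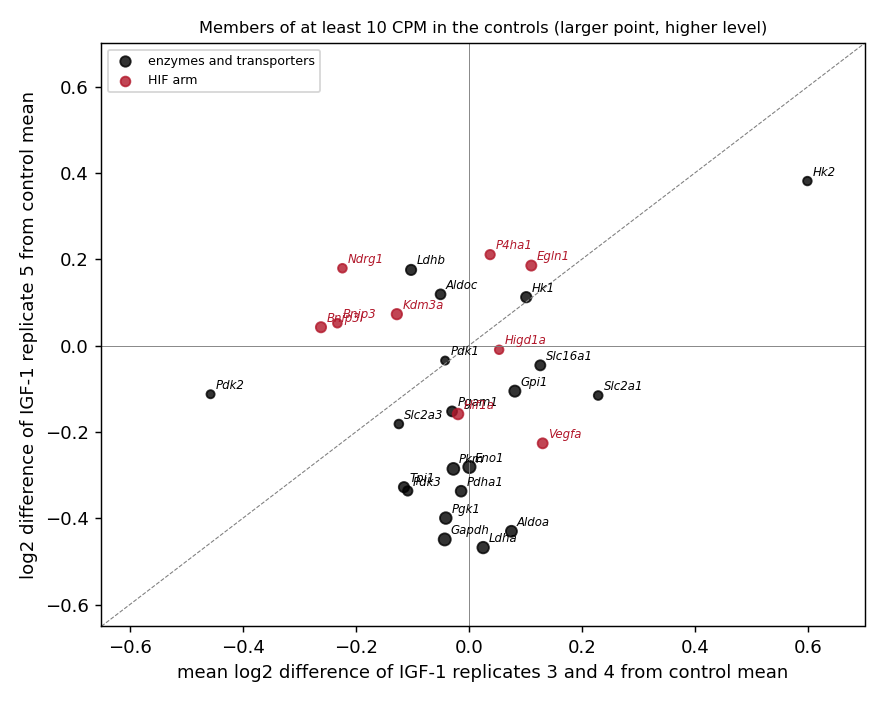
Log2 difference from the control mean in IGF-1 replicate 5 (vertical) against the mean of replicates 3 and 4 (horizontal), for the genes of at least 10 CPM in the controls, with larger points for higher control means and the dashed line marking equal differences. Most enzyme genes lie below the line, most hypoxia genes above it, and Hk2 alone lies far to the right.

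Lactate leaves through MCT1 (Slc16a1) and MCT4 (Slc16a3). Slc16a1 read 88.0 and 92.5 CPM in the controls and 95.1, 102 and 87.5 CPM with IGF-1, with the groups overlapping through replicate 5 (log2 0.07, SE 0.08; adjusted p = 0.74 by edgeR). Slc16a3, the form known to be induced by hypoxia, stayed at 0.371 to 0.587 CPM in all libraries, where a difference was not detectable at this depth (SE 0.50 on the log2 scale).

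Pyruvate dehydrogenase kinases switch off the entry of pyruvate into mitochondria. Pdk3 was the most abundant of the 3 kinases, at 41.4 and 42.5 CPM in the controls and 39.3, 38.5 and 33.2 CPM with IGF-1. All 3 IGF-1 values were below the controls (log2 -0.18, SE 0.09; adjusted p = 0.448 by edgeR). Pdk2 read 9.35 and 12.5 CPM in the controls and 7.49, 8.42 and 10.1 CPM with IGF-1. The controls were far apart, replicates 3 and 4 were below both and replicate 5 lay between them. With all libraries the change was -0.33 (SE 0.17; adjusted p = 0.468 by edgeR). Without replicate 5 it was -0.45 and passed (adjusted p = 0.0356 by edgeR), but not by DESeq2 on the same 4 libraries (adjusted p = 0.443), and without control replicate 2 it was -0.11. Pdk1, a HIF target, read 10.1 to 11.8 CPM over all 5 libraries (log2 -0.04, SE 0.13; adjusted p = 0.929 by edgeR).

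The oxygen-sensing genes differed little between the groups. Hif1a read 179 and 201 CPM in the controls and 192, 183 and 170 CPM with IGF-1 (log2 -0.06, SE 0.08; adjusted p = 0.763 by edgeR), and replicates 3 and 4 lay between the controls. Egln1, the main prolyl hydroxylase, read 96.5 and 95.9 CPM in the controls and 104, 104 and 109 CPM with IGF-1. It was the 1 hypoxia gene of 12 whose groups did not overlap, against 33.1% of all genes tested. The change of Egln1 did not pass (log2 0.14, SE 0.06; adjusted p = 0.4 by edgeR). Egln3, the hydroxylase most strongly induced by hypoxia, read 4.96 and 3.19 CPM in the controls and 4.90, 4.71 and 2.99 CPM with IGF-1, so that the controls differed as much as the IGF-1 libraries did.

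Vegfa, the gene of the growth factor that attracts blood vessels, read 84.9 and 79.3 CPM in the controls and 87.1, 92.7 and 70.2 CPM with IGF-1. Replicates 3 and 4 were above both controls and replicate 5 below both (log2 0.02, SE 0.11; 0.13 without replicate 5, adjusted p = 0.142 by edgeR). Adm had 1 to 2 counts in 4 libraries and 9 in replicate 5.

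Bnip3 and Bnip3l encode related proteins of the outer mitochondrial membrane that promote removal of mitochondria. Bnip3l read 108 and 113 CPM in the controls and 90.9, 93.1 and 114 CPM in IGF-1 replicates 3, 4 and 5. Replicates 3 and 4 were below both controls, and replicate 5 was just above them, so that with all libraries the change did not pass (log2 -0.15, SE 0.09; adjusted p = 0.545 by edgeR). Without replicate 5 it fell by 0.26 (SE 0.05) and passed by edgeR (adjusted p = 1.45e-04) and DESeq2 (adjusted p = 0.0185), as it did with sample quality weights by limma-voom (-0.23; adjusted p = 0.0403). Bnip3l is known as a target of FOXO factors as well as of HIF, and 20.6% of its stretches of 75 bases are shared with a pseudogene. Bnip3 likewise was below both controls in replicates 3 and 4 and above both in replicate 5, with 20.8 and 20.3 CPM in the controls and 18.6, 16.4 and 21.3 CPM with IGF-1, and did not pass (log2 -0.13, SE 0.12; -0.23 without replicate 5, adjusted p = 0.177 by edgeR). Its ratio to Bnip3l was alike in the groups, at -2.42 ± 0.075 on the log2 scale in the controls (SD, n = 2) and -2.40 ± 0.108 with IGF-1 (SD, n = 3). Higd1a, a small mitochondrial protein gene of the hypoxia response, read 17.9 to 20.2 CPM in all libraries.

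The remaining hypoxia genes were highest in replicate 5, with no difference that passed. P4ha2, the gene of a collagen prolyl hydroxylase subunit, read 6.17 and 6.90 CPM in the controls and 6.61, 8.47 and 12.04 CPM with IGF-1 (log2 0.47, SE 0.23; adjusted p = 0.438 by edgeR; 0.21 without replicate 5). Its partner isoform gene P4ha1 read 39.8 and 41.6 CPM and then 43.6, 40.0 and 47.1 CPM (log2 0.10, SE 0.09). Ndrg1, a gene induced by hypoxia and differentiation, read 20.4 and 19.8 CPM in the controls and 15.8, 18.7 and 22.8 CPM with IGF-1. Kdm3a, a histone demethylase gene, read 132 and 130 CPM and then 115, 125 and 138 CPM. In Ndrg1 and Kdm3a, as in Bnip3 and Bnip3l, replicates 3 and 4 lay below both controls and replicate 5 above both. Ankrd37 was scarce, at 1.90 to 3.38 CPM. Over the 12 tested hypoxia genes replicate 5 was the highest library for 8, against 28.1% of all genes tested, and their median log2 difference from the controls was 0.05, -0.04 and 0.06 in replicates 3, 4 and 5. Among all genes tested, the median in replicate 5 was 0.06 over transcripts of 3000 bases or more, -0.05 over those of 1500 to 3000 bases and -0.20 over shorter ones. Of the 8 genes, Egln1, Bnip3l, P4ha1 and Kdm3a are in the longest class. Bnip3, P4ha2 and Ndrg1 are in the middle class, and Ankrd37 (927 bases) is in the shortest. The part of length in the values of the hypoxia genes was not tested.

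**Figure D5:**
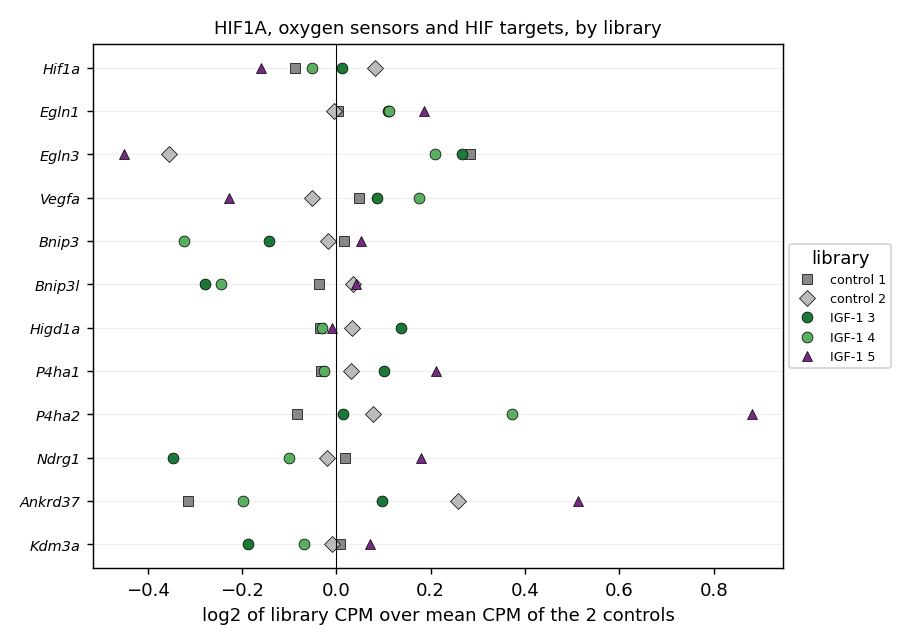
Log2 of the CPM of each library over the mean of the 2 controls, for Hif1a, the prolyl hydroxylase genes and HIF targets that were tested. Replicates 3 and 4 of IGF-1 lie left of both controls for Bnip3, Bnip3l, Ndrg1 and Kdm3a, and replicate 5 lies right of them.

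Neighbouring genes of the pathways were counted from 3 further lists of 98 genes, of which 80 were tested. Of 21 further genes of glycolysis, edgeR called 2 higher and 1 lower, against 0.685% and 0.339% of all genes. Pfkfb3 encodes the kinase that produces a sugar bisphosphate, the strongest known activator of phosphofructokinase. It read 29.5 and 28.1 CPM in the controls and 51.6, 51.6 and 52.5 CPM with IGF-1, and it rose by 0.85 on the log2 scale (SE 0.08; adjusted p = 0.00206 by edgeR). Tigar, whose enzyme breaks down that activator, read 14.1 and 15.2 CPM and then 20.1, 21.3 and 23.3 CPM (log2 0.56, SE 0.11; adjusted p = 0.0495 by edgeR), the largest value being replicate 5. Txnip, which restrains glucose uptake, read 31.5 and 31.9 CPM and then 21.3, 22.1 and 20.3 CPM, and it fell by 0.58 (SE 0.09; adjusted p = 0.0184 by edgeR). Values of these 3 genes did not overlap between the groups, as for 33.1% of all genes tested, and replicate 5 moved with replicates 3 and 4 in each. The 3 were named because they were called on these same libraries, so this adds no separate support. By edgeR all 3 passed without replicate 5, and none passed without control replicate 1 (adjusted p = 0.093, 0.546 and 0.349) or control replicate 2 (0.144, 0.485 and 0.371). Without IGF-1 replicate 3 or 4, Pfkfb3 still passed (0.022 and 0.0137), while Tigar (0.115 and 0.135) and Txnip (0.0815 and 0.0588) did not. Of the 21 genes, edgeR without IGF-1 replicate 5 called 3 higher and 1 lower, against 5.49% and 3.65% of all genes. The gene added was Pgm2 (log2 0.28, SE 0.07; adjusted p = 0.00203 by edgeR), for which replicate 5 lay between the controls.

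Of 20 further genes of pyruvate and lactate handling edgeR and DESeq2 called 0. Unadjusted, 1 was lower by either tool, the malate dehydrogenase gene Mdh1 (log2 -0.19). The shares were 12.7% of all genes by edgeR and 9.25% of the genes with an adjusted p by DESeq2. By edgeR without replicate 5, Mdh1 passed (log2 -0.14; adjusted p = 0.0157), as 1 of the 20, against 3.65% of all genes called lower. The most abundant were Bsg, the partner protein gene of the lactate transporters (log2 -0.07), and Got2, a mitochondrial aminotransferase gene (-0.12). Of 39 further hypoxia genes edgeR called 0, with 6 higher and 4 lower unadjusted, against 12.7% of all genes in either direction. DESeq2 called 1 higher, Igfbp3, and 1 lower, the nuclear receptor gene Rora (log2 -0.56; adjusted p = 0.0131 by DESeq2 and 0.0501 by edgeR). It called 1.39% higher and 0.581% lower of the genes to which it gave an adjusted p. Mdh1, Rora and Pgm2 were named after their values were seen. Without replicate 5 edgeR called 7 of the 39 hypoxia genes higher and 4 lower, against 5.49% and 3.65% of all genes. The most abundant were Igfbp3, the gene of an IGF-binding protein (408 ± 5.63 CPM, SD, n = 2, against 532 ± 90.5 CPM, SD, n = 3; log2 0.38; adjusted p = 0.196 by edgeR and 0.0312 by DESeq2), and Wsb1 (255 ± 2.51 against 219 ± 9.96 CPM, log2 -0.22; adjusted p = 0.171 by edgeR). By edgeR without replicate 5, Igfbp3 passed (log2 0.25; adjusted p = 1.6e-06), and so did Wsb1 (log2 -0.26; adjusted p = 2.08e-06). The medians of the 3 lists were -0.02, -0.08 and 0.00, beside -0.01 for all genes.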

How the data were processed

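The tools named in the submitters' processing notes are STAR 2.7.9a, featureCounts 2.0.1, cutadapt 3.4 and DESeq2 1.28.1, with build GRCm39. Their settings, the annotation and the handling of strand and multiply mapped reads are not given in the sources used here. The authors deposited raw counts per gene symbol, 1 table per library. Groups came from the titles. Genes were filtered with filterByExpr (minimum count 10, total 15), which left 15919, scaled by TMM and tested with edgeR 4.0.16 in R 4.3.3 (quasi-likelihood F-test, two-sided, Benjamini-Hochberg adjustment, threshold 0.05). The SE is the log2 change divided by the square root of F. DESeq2 1.42.0, limma 3.58.1, other scalings, no filter and each library left out were alternatives, and DESeq2 without IGF-1 replicate 5 was added after seeing the data. The procedure was tested on simulated data. Transcript lengths are those of the longest GENCODE M21 transcript with a curated RefSeq match, on GRCm38. The same transcripts were searched for stretches of 75 bases shared with M21 transcripts of other genes. The members and lists were chosen with earlier results of these data known. All members are named. Of other genes, those called are named, or the 2 most abundant of a list with none called. All 5 libraries differ in number, so none was paired.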

Additional observations from a re-analysis of the deposited data

How the results depend on the processing

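No paired analysis was possible because the replicate numbers 1 to 5 are not shared between the groups. Of 405 values for single genes under the alternatives, 357 kept their direction and side of the threshold, 9 passed it anew (Hk2, Pdk2 and Bnip3l) and 39 changed sign. The sign changes fell on 16 genes whose log2 change with all libraries was at most 0.17 in size, and the cause was not tested. Changed signs were, with limma-voom with sample quality weights, Aldoa 0.026, Aldoc -0.032, Slc16a3 -0.0042, and with DESeq2 without IGF-1 replicate 5, Aldoa 0.080, Aldoc -0.046, Eno1 0.0051, Ldha 0.030, Slc16a3 -0.015, Ankrd37 -0.038. Ldhb, at -0.0029 with all libraries, was 0.00017 with RLE factors, 0.0020 with no filter on low counts, 0.0021 with DESeq2. With each library left out, the lowest and highest log2 changes of genes that changed sign were Gpi1 -0.024 and 0.082, Aldoa -0.18 and 0.076, Aldoc -0.064 and 0.089, Eno1 -0.14 and 0.00073, Eno2 -0.19 and 0.19, Ldha -0.21 and 0.025, Ldhb -0.10 and 0.051, Slc16a3 -0.043 and 0.28, Pdk1 -0.13 and 0.066, Hif1a -0.14 and 0.023, Egln3 -0.24 and 0.40, Vegfa -0.063 and 0.13, Higd1a -0.018 and 0.070, Ndrg1 -0.22 and 0.049, Ankrd37 -0.085 and 0.48, Kdm3a -0.13 and 0.0065. 

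Calls of enzyme and transporter genes as higher numbered 0 with all libraries and 1 (Hk2) with no filter on low counts, DESeq2, limma-voom with quality weights, and DESeq2 without IGF-1 replicate 5, and 0 to 1 with each library left out, and calls as lower 0 to 1. Calls of hypoxia genes as lower numbered 1 (Bnip3l) with quality weights and with DESeq2 without IGF-1 replicate 5, and 0 to 1 with each library left out. The other pathway genes called higher, 2 with all libraries, were 1 with total counts and with limma-voom (Tigar no longer passed, adjusted p = 0.0604 and 0.0668), 6 with no filter, 8 with quality weights, 4 with DESeq2 without replicate 5, and 0 to 10 with each library left out. Those called lower, 1 with all libraries, were 5 with no filter and with quality weights, 2 with DESeq2, 4 with DESeq2 without replicate 5, and 0 to 6 with each library left out. Over all genes, 109 higher and 54 lower with all libraries became 385 and 221 with no filter, 480 and 331 with quality weights, 180 and 75 with DESeq2, 316 and 146 with DESeq2 without replicate 5, and 0 to 855 and 2 to 569 with each library left out. The enzyme median lay between -0.14 and -0.029 and the hypoxia median between -0.045 and 0.0097 with each library left out. With either control left out, the other one has no spread of its own and takes that of the IGF-1 libraries; edgeR then called 0 members and, over all genes, 0 higher and 2 lower. Depth limits Slc16a3, Car9, Adm and Eno2, which had few counts.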
